A study of Homo sapiens with 16 samples.

Results

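The HOX cluster genes, a family of homeodomain transcription factors, were measured with expression arrays in 2 human multiple myeloma cell lines, RPMI-8226 and MM.1S. Every non-control probe whose gene name was HOXA, HOXB, HOXC or HOXD followed by a number was taken. These rules gave 39 genes of 34423 gene symbols on the array, measured by 45 probes. HOXA held 11 genes on chromosome 7, HOXB held 10 on chromosome 17, HOXC held 9 on chromosome 12 and HOXD held 9 on chromosome 2. Cells of each line received DMSO (the vehicle), GSK126 (1 µM), UNC0638 (1 µM) or GSK126 + UNC0638 (1 µM each) for 6 days, in biological duplicate, so that 8 groups of 2 arrays were compared. GSK126 inhibits EZH2 and UNC0638 inhibits G9a and its partner GLP. The combination also contained each agent at its single-agent dose. Both models are established lines in culture. The arrays of each line lay on 1 slide scanned once, so that slide and line cannot be told apart.

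HOX genes give cells their position along the body axis in the embryo, and within each cluster the genes lie in the order in which they act. Genes with low paralog numbers act toward the head and genes with high numbers toward the tail. In blood formation, HOXA and HOXB genes are active in stem and progenitor cells and are turned down as cells mature. HOX clusters are classic targets of polycomb repressive complex 2 (PRC2), whose catalytic subunit EZH2 methylates histone H3 at lysine 27, a mark of silent genes, whereas G9a methylates lysine 9.

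A level is the log2 intensity of a probe minus the 75th percentile of its array, so that 0 is that percentile. A probe was taken as detected where the scanner software flagged it as well above background. Levels of different probes are not compared with each other. All 9 plasma cell markers on the array, among them SDC1, IRF4 and XBP1, were detected on all 8 arrays of each line, while MPO and ELANE (myeloid), COL3A1 and THY1 (stromal) and CDH1 (epithelial) were detected on none of the 16. Other markers of non-plasma cells were detected, with CD14 and CD33 (myeloid), KRT8 and KRT18 (epithelial) and CD3D and CD2 (T cell) on all 16 arrays. EPCAM, DCN, CSF1R and CD3G were detected on all 8 of RPMI-8226, and TRAT1 on all 8 of MM.1S. The summed linear level of 5 T cell genes, relative to the 75th percentile, was 0.451 to 0.504 in DMSO and 12.5 to 14.3 with the combination in RPMI-8226, against 1.47 to 1.53 and 1.84 to 2.16 in MM.1S. That of 5 myeloid genes was 6.51 to 9.70 and 17.4 to 20.5 in RPMI-8226, and 2.31 to 2.79 and 6.99 to 7.81 in MM.1S. The sum of 5 epithelial genes was larger in RPMI-8226, at 80.2 to 95.9 in DMSO and 66.9 to 67.5 with the combination. In MM.1S it was 1.08 to 1.21 and 0.958 to 1.01. Of the 9 plasma cell markers, 3 were called lower and 1 higher with the combination in RPMI-8226, where 5.17% and 7.2% of all probes were, and 8 were called lower in MM.1S, where 31.7% were. The part of these in the HOX results was not tested.

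The promoter sequences shown here belong to HOXA9, detected on every array, to both starts of HOXA10, whose 2 probes moved in opposite directions, to HOXC4, called with the combination in MM.1S, and to HOXD10, detected on no array. RefSeq (GRCh38.p14) gave promoters for 20 of the 39 genes, at 26 positions. Each run is the 250 bases before the transcript start, written 5′ to 3′ on the strand of the gene, with CG dinucleotides in capitals. HOXC4 and HOXC5 share the window shown for HOXC4.
HOXA9, minus strand, (chr7:27165538-27165787): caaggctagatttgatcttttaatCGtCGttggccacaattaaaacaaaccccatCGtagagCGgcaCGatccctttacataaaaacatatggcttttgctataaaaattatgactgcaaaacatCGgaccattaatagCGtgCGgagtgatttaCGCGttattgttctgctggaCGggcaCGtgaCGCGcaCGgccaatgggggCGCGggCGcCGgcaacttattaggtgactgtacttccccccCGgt
HOXA10, downstream start, minus strand, (chr7:27174321-27174570): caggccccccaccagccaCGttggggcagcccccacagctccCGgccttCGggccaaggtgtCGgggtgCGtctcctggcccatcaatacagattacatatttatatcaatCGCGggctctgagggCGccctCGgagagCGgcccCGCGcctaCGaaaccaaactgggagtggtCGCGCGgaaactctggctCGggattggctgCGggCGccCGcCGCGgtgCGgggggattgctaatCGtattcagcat
HOXA10, upstream start, minus strand, (chr7:27179862-27180111): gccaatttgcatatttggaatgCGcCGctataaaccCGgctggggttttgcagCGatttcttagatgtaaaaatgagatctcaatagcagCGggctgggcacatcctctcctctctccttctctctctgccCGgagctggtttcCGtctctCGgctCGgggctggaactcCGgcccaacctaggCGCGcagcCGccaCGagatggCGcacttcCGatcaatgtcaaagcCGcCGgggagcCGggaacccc
HOXC4, plus strand, (chr12:54016638-54016887): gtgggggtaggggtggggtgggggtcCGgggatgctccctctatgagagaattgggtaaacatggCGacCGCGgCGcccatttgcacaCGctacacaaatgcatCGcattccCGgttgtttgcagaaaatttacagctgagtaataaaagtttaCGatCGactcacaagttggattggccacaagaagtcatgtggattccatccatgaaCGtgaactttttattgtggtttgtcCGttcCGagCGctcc
HOXD10, plus strand, (chr2:176116528-176116777): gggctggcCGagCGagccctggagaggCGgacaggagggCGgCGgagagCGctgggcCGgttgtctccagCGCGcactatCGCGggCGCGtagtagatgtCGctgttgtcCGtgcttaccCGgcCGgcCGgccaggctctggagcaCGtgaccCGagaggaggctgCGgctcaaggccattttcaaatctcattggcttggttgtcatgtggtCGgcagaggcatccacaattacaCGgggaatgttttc

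These windows held 20 CG dinucleotides at HOXA9, 24 and 19 at the 2 HOXA10 starts, 14 at HOXC4 and 23 at HOXD10. Over the 26 HOX windows the median was 19.5 (range 0 to 40), against 11 over all 34943 promoter windows of the same length. The ratio of observed to expected CG dinucleotides had a median of 0.886 in HOX windows and 0.556 in all. HOXA9, the called HOXC4 and the undetected HOXD10 all lay above the median of all promoters, at 1.34, 0.888 and 0.923. The letters CCAAT, on either strand, stood in 17 of the 26 HOX windows (65.4%) and in 32% of all, and TATAAA in 5 (19.2%) and 10.8%. The windows of HOXA9 and of both HOXA10 starts held both words. These counts are descriptions of the letters, and 7 of the 26 windows belonged to HOXA3 alone.

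Most HOX genes were not detected in either line. Of the 39 genes, 26 were detected on 0 of 16 arrays, 13 on at least 1 array and 12 on both arrays of at least 1 group. The detected genes lay in HOXA (5 of 11) and HOXB (6 of 10), with 1 of 9 in HOXC and 0 of 9 in HOXD. By paralog number they were 3 of 8 anterior genes (1 to 3), 6 of 15 central genes (4 to 8) and 3 of 16 posterior genes (9 to 13). HOXA9, HOXA10, HOXB2, HOXB4 and HOXB6 were detected on all 16 arrays. The 29 probes detected on no array had levels from -7.21 to -4.39 with a median of -6.55, and the lowest detected signal of an array was between -4.95 and -4.04.

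**Figure D1:**
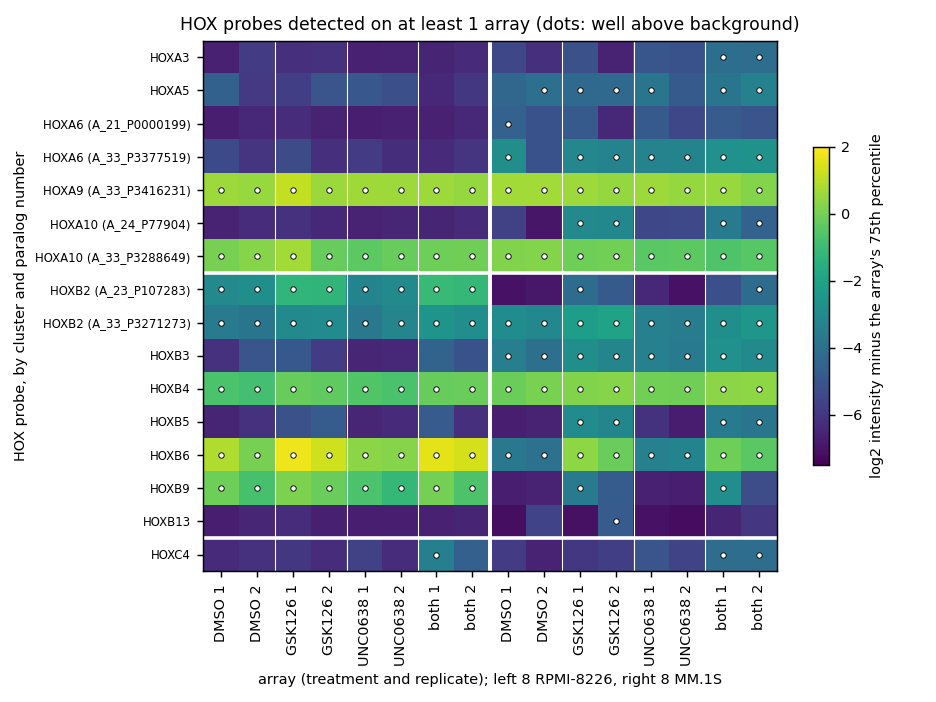
Level of each HOX probe detected on at least 1 array (rows, grouped by cluster and ordered by paralog number) on each of the 16 arrays (columns). Colour is log2 intensity minus the 75th percentile of the array and should be compared along a row; dots mark arrays on which the probe was well above background. All rows belong to HOXA and HOXB apart from HOXC4, and no HOXD probe was detected.

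The set of detected genes was the same under all treatments in RPMI-8226 and larger with GSK126 or the combination in MM.1S. In RPMI-8226 the same 6 genes, HOXA9, HOXA10, HOXB2, HOXB4, HOXB6 and HOXB9, were detected on both arrays of all 4 groups. In MM.1S with DMSO there were also 6, with HOXB3 in place of HOXB9. GSK126 added HOXA5, HOXA6 and HOXB5 for a total of 9, UNC0638 added HOXA6 for 7, and the combination added HOXA3, HOXA5, HOXA6, HOXB5 and HOXC4 for 11. No test applies to these counts, and HOXA5 and HOXA6 were already detected on 1 of the 2 DMSO arrays. HOXA5 read -4.37 and -4.05 with DMSO, -4.25 and -4.25 with GSK126, and -3.80 and -3.32 with the combination. The HOXA6 probe detected on 7 arrays read -2.80 and -5.09 with DMSO and -3.11 and -3.24 with GSK126. It read -3.24 and -3.21 with UNC0638 and -2.68 and -2.64 with the combination. With GSK126 both probes thus lay within the range of their DMSO arrays. As a share of HOX probes, detection was 15.6% in each RPMI-8226 group, where 42%, 41.8%, 42.7% and 43.2% of all probes were detected with DMSO, GSK126, UNC0638 and both. In MM.1S it was 13.3%, 22.2%, 15.6% and 26.7% in the same order, and 45.5%, 46.3%, 46.5% and 46.8% of all probes. Under the weaker flag of the software, a signal positive and significant, the 4 MM.1S groups had 12, 15, 14 and 17 genes.

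**Figure D2:**
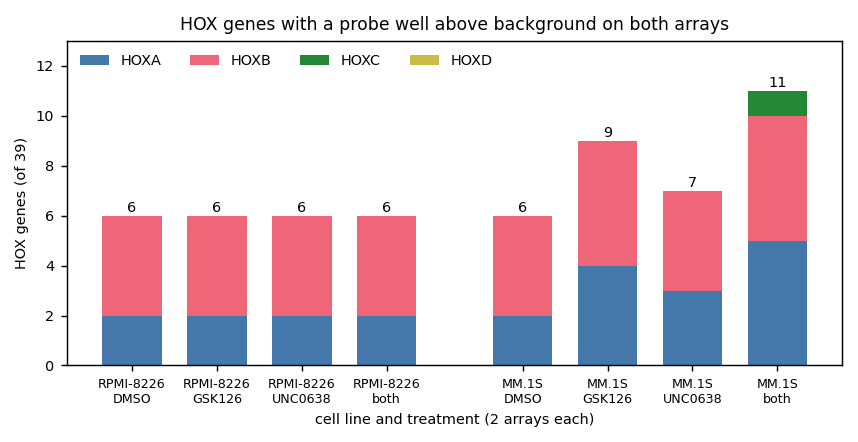
Number of HOX genes (y axis, of 39) with a probe well above background on both arrays of each group (x axis), split by cluster. All 4 RPMI-8226 groups have 6 genes; in MM.1S the number is 6 with DMSO, 9 with GSK126, 7 with UNC0638 and 11 with both, the last including 1 HOXC gene. The bars count detection and not a change in level: HOXA5 and HOXA6, counted with GSK126, lay within the range of their DMSO arrays.

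With DMSO for 6 days, both lines had HOXB2, HOXB4 and HOXB6 detected, while HOXB9 was detected in RPMI-8226 and HOXB3 in MM.1S. HOXB9, a posterior member, and HOXB6, a central one, were higher in RPMI-8226, and HOXB3 and HOXB4 were higher in MM.1S. Of 14 HOX probes tested between the DMSO groups (limma over 16 arrays, Benjamini-Hochberg adjusted p below 0.05, called hereafter), 3 were called higher in RPMI-8226 and 4 lower, while 28.4% and 29.3% of all 26931 probes were called. The HOX counts were close to those shares, so that they say nothing particular of HOX genes. HOXB6 (probe at chr17:46673193-46673252 of GRCh37, the build of the array files, minus strand) had levels of 0.87 and 0.07 in RPMI-8226 and -3.69 and -3.95 in MM.1S. The groups did not overlap, and RPMI-8226 was 19.5-fold higher (log2 difference 4.29 ± 0.27 SE, adjusted p = 3.32e-07). HOXB9 (chr17:46698615-46698674) had levels of -0.08 and -0.77 in RPMI-8226 and was not well above background in MM.1S, so that it was at least 20.5-fold higher in RPMI-8226 (adjusted p = 1.42e-05). HOXB4, known for its part in blood stem cell self-renewal, had levels of -0.71 and -0.83 in RPMI-8226 and -0.15 and 0.08 in MM.1S, 1.66-fold higher in the latter (adjusted p = 0.000235). HOXB3 was at least 1.60-fold higher in MM.1S (adjusted p = 0.00279), where both DMSO arrays detected it and neither RPMI-8226 array did, but its difference turned to 0.023 with normexp background correction. HOXA6 was at least 1.37-fold higher in MM.1S (adjusted p = 0.0241), on the strength of 1 MM.1S array that detected it. HOXA9 and the probe of HOXA10 detected on every array, both of which are progenitor genes, differed by -0.10 ± 0.17 and -0.04 ± 0.23 (adjusted p = 0.65 and 0.906).

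In RPMI-8226 cells, HOXB2 was called higher with GSK126, and HOXB2 and HOXB4 with the combination, whereas UNC0638 alone left no HOX probe called. The HOXB4 call and the lack of a call at HOXB6 with the combination depended on the processing. These fits left out the replicate number, although it was taken to pair the arrays of this line. With it as a block, HOXB6 was called with the combination too. All 7 HOX probes tested were detected with DMSO, so that none entered through a treated group. GSK126 gave 1 called higher and 0 lower, where 0.547% and 0.0517% of the 23199 probes tested were called. UNC0638 gave 0 and 0 (limma; 0 of 7 also at an unadjusted p below 0.05), against 0.556% and 0.0776%. The combination gave 3 higher and 0 lower, against 7.2% and 5.17%. The median log2 difference over the 7 probes was 0.51, -0.15 and 0.58 in the same order, and -0.05, -0.03 and -0.13 over all probes.

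HOXB2, an anterior member of the cluster, showed the largest called difference in this line. Its probe at chr17:46620127-46620186 read -3.03 and -2.77 with DMSO, -1.26 and -1.29 with GSK126, -3.21 and -2.97 with UNC0638, and -1.06 and -1.19 with the combination. The 4 arrays given GSK126 lay above the 4 without it. The differences from DMSO were 1.62 ± 0.16 for GSK126 (3.08-fold, adjusted p = 0.02), -0.19 ± 0.16 for UNC0638 (adjusted p = 0.83) and 1.78 ± 0.16 for the combination (3.42-fold, adjusted p = 0.0017). Leaving out any 1 of the 6 DMSO or single-agent arrays, or testing dim probes too, ended the GSK126 call (adjusted p up to 0.11), and the combination call was kept in every alternative run. The other HOXB2 probe (chr17:46620897-46620956) read -3.63 and -3.79 with DMSO and -2.60 and -2.83 with the combination, a 2.0-fold rise (adjusted p = 0.0257) whose call was lost in 7 of 16 alternatives, among them leaving out any DMSO or combination array. It was 0.78 ± 0.20 above DMSO with GSK126 (adjusted p = 0.222).

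HOXB4 and HOXB6 lay above DMSO by smaller margins. HOXB4 (chr17:46653132-46653191) read -0.71 and -0.83 with DMSO and -0.19 and -0.18 with the combination, a 1.50-fold difference (0.58 ± 0.14, adjusted p = 0.0427) that lost its call in 9 of 16 alternatives, among them leaving out any 1 of the 8 arrays. HOXB6 read 0.87 and 0.07 with DMSO, 1.75 and 1.31 with GSK126, 0.34 and 0.29 with UNC0638, and 1.62 and 1.40 with the combination. The arrays given GSK126 did not overlap with DMSO, but the differences of 1.06 ± 0.29 and 1.05 ± 0.29 were not called (adjusted p = 0.244 and 0.0613). With the replicate number as a block, which paired the arrays of this line, the combination difference was called (adjusted p = 0.0191) and the HOX count was 4. This HOXB6 difference was also called with normexp correction (limma, adjusted p = 0.0206) and with the other percentile (0.045). The same held with only probes detected on all arrays tested (0.0499) and in 1 fit over 16 arrays (0.0191). HOXA9, HOXA10 and HOXB9 were not called with any treatment in RPMI-8226, with differences between -0.50 and 0.40.

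Against its single agents the combination in RPMI-8226 differed from UNC0638 alone at HOXB2 and from GSK126 alone at no HOX probe. Against GSK126, 0 were called higher and 0 lower (limma; 0 of 7 at an unadjusted p below 0.05), with 2.01% and 0.543% of all probes called. Against UNC0638, 1 was called higher and 0 lower, with 2.69% and 0.698% of all. The difference of HOXB2 from GSK126 alone was 0.15 ± 0.16 and from UNC0638 alone 1.96 ± 0.16 (3.90-fold, adjusted p = 0.00275). With the replicate block 2 probes were called against UNC0638, HOXB6 being the second (1.20 ± 0.20, adjusted p = 0.0242).

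**Figure D3:**
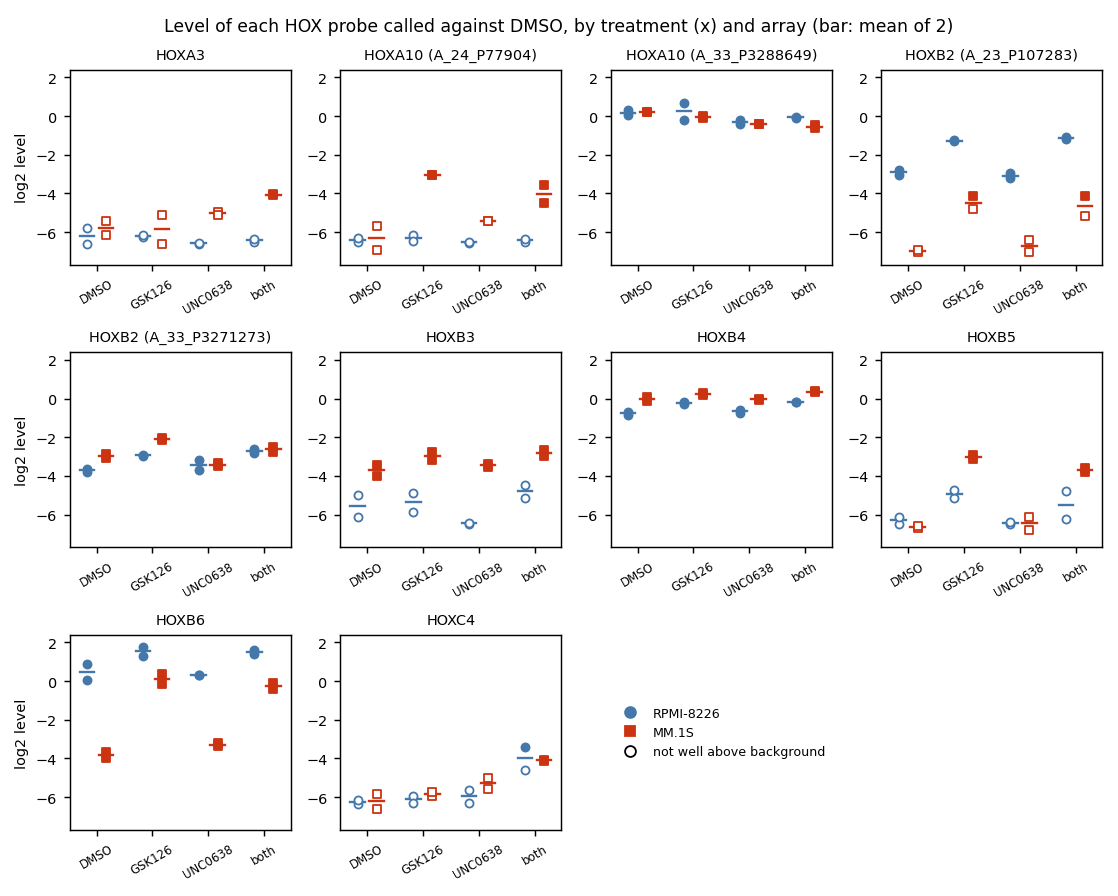
Level (y axis, log2 intensity minus the 75th percentile of the array) of each HOX probe called against DMSO, by treatment (x axis) in RPMI-8226 (circles) and MM.1S (squares). Each point is 1 array, bars are means of 2, and open points were not well above background; HOXB6 in MM.1S sits between -3.95 and -3.20 with DMSO or UNC0638 and between -0.42 and 0.39 with GSK126 or both.

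In MM.1S cells, GSK126 raised HOXB6 15.3-fold and raised HOXB5 and 1 HOXA10 probe from below background, with a smaller rise of HOXB2. Of 12 HOX probes tested, 4 were called higher and 0 lower, against 5.19% and 2.39% of the 25102 probes tested. Of the 12, 6 were detected on both DMSO arrays. The other 6 (in HOXA3, HOXA5, HOXA6, HOXA10, HOXB5 and HOXC4) were tested only because a treated group detected them. The count, and the differences and adjusted p-values of those 6 in this line, are therefore a description. The median log2 difference over the 12 was 0.56, and -0.05 over all probes.

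HOXB6 and HOXB5 are neighbouring central genes, and their probes lie next to each other in the cluster. HOXB6 read -3.69 and -3.95 with DMSO, 0.39 and -0.16 with GSK126, -3.37 and -3.20 with UNC0638, and -0.11 and -0.42 with the combination. The 4 arrays with GSK126 lay well above the 4 without it, in a gene detected on all 8. The differences were 3.93 ± 0.21 with GSK126 (adjusted p = 0.0038), 0.54 ± 0.21 with UNC0638 (adjusted p = 0.108) and 3.55 ± 0.21 with the combination (11.7-fold, adjusted p = 0.000193). HOXB5 (chr17:46668806-46668865) read -6.71 and -6.60 with DMSO, -2.90 and -3.15 with GSK126, -6.10 and -6.77 with UNC0638, and -3.60 and -3.80 with the combination. It was detected on the 4 arrays with GSK126 and on no other of the 16. HOXB5 was at least 3.39-fold higher than DMSO with GSK126 (adjusted p = 0.0038) and at least 2.12-fold with the combination (adjusted p = 0.000345). The HOXB6 calls against DMSO were kept in every alternative. Those of HOXB5 were kept in every alternative that tested it. But HOXB5 was tested only because treated groups detected it, so that its differences and calls are a description.

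HOXA10 gave opposite readings from its 2 probes. The probe at chr7:27211235-27211294 read -5.68 and -6.93 with DMSO, -3.04 and -3.06 with GSK126, -5.44 and -5.42 with UNC0638, and -3.55 and -4.51 with the combination. It was detected only on the 4 GSK126-treated MM.1S arrays of the 16, at least 3.33-fold higher with GSK126 (adjusted p = 0.0174) and at least 1.69-fold with the combination (adjusted p = 0.00757). The GSK126 call was lost without the second DMSO array or either GSK126 array and with dim probes tested too (adjusted p up to 0.0998). Treated groups alone brought this probe into the test, so that its differences are a description. The probe at chr7:27211789-27213023, an interval longer than that of any other HOX probe, read 0.19 and 0.23 with DMSO, -0.09 and -0.01 with GSK126, -0.42 and -0.39 with UNC0638, and -0.63 and -0.45 with the combination. Every treated array lay below both DMSO arrays. This probe fell 1.54-fold with UNC0638 (adjusted p = 0.00655) and 1.69-fold with the combination (adjusted p = 0.00112), and its difference with GSK126 was -0.27 ± 0.09 (adjusted p = 0.124). Which transcripts each probe reads, including HOXA10-HOXA9 readthrough RNA, was not tested.

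HOXB2 in MM.1S was read by both probes at different detection. The probe at chr17:46620897-46620956 read -2.88 and -3.08 with DMSO, -2.16 and -2.03 with GSK126, -3.35 and -3.48 with UNC0638, and -2.77 and -2.49 with the combination. GSK126 raised it 1.85-fold (0.89 ± 0.13, adjusted p = 0.0193), a call that ended when any DMSO or GSK126 array was left out or dim probes were tested too (adjusted p up to 0.0944). The combination difference of 0.36 ± 0.13 was not called (adjusted p = 0.0606). The other probe was detected on 1 array with GSK126 (-4.14) and 1 with the combination (-4.13), and so did not pass the filter on dim probes in this line. Without that filter it was called with the combination (2.32 ± 0.42 above DMSO as a fitted value, adjusted p = 0.0154), though both DMSO arrays were below background.

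With UNC0638 alone in MM.1S, 0 HOX probes were called higher and 1 lower, against 12.8% and 16.5% of all probes. With 12 HOX probes tested, counts this small cannot be told from those shares. At an unadjusted p below 0.05 (limma), 4 of the 12 passed. The one called was the HOXA10 probe above. HOXC4 and HOXA3 were not well above background on any DMSO or UNC0638 array, so that no difference is given for them. The median over the 12 probes was 0.24, and -0.07 over all.

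The combination in MM.1S raised 7 HOX probes and lowered 1, against 22.2% and 31.7% of all probes. The 7 were HOXA3, 1 HOXA10 probe, HOXB3, HOXB4, HOXB5, HOXB6 and HOXC4, and the median over the 12 tested was 1.09, against -0.12 over all. HOXA3, HOXA10, HOXB5 and HOXC4 among them were tested only because a treated group detected their probes. This count and median, and the differences of those genes, are therefore a description. HOXC4, which in mature B cells takes part in antibody gene diversification, read -5.81 and -6.60 with DMSO, -5.94 and -5.73 with GSK126, -5.01 and -5.56 with UNC0638, and -4.12 and -4.09 with the combination (chr12:54449755-54449814). Only the combination arrays detected it in this line, at least 1.60-fold above DMSO (adjusted p = 0.00186). HOXA3 (chr7:27146771-27146830) read -5.44 and -6.17 with DMSO, -5.14 and -6.59 with GSK126, -4.96 and -5.10 with UNC0638, and -4.05 and -4.10 with the combination. It too was detected with the combination alone, at least 1.64-fold above DMSO (adjusted p = 0.0232), a call lost without the second DMSO array or either combination array and with dim probes tested too (adjusted p up to 0.116).

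HOXB3 and HOXB4 were detected on all 8 MM.1S arrays. HOXB3 (chr17:46627302-46627361) read -3.43 and -4.0 with DMSO, -2.76 and -3.19 with GSK126, -3.37 and -3.56 with UNC0638, and -2.68 and -2.97 with the combination. The combination was 1.85-fold higher (0.89 ± 0.24, adjusted p = 0.021). HOXB4 read -0.15 and 0.08 with DMSO, 0.20 and 0.28 with GSK126, -0.01 and -0.07 with UNC0638, and 0.36 and 0.37 with the combination, 1.32-fold higher (0.40 ± 0.10, adjusted p = 0.0163). Arrays with DMSO and with the combination did not overlap for either gene, which with 2 arrays a group is a description and adds nothing to the calls. The HOXB3 call was lost without the second DMSO array or the first combination array (adjusted p up to 0.107), with dim probes tested too and in 1 fit over 16 arrays. The HOXB4 call was lost without the first DMSO array or either combination array and with dim probes tested too (adjusted p up to 0.0758). HOXA9, HOXA5 and HOXA6 were not called, with differences of -0.29 ± 0.12, 0.65 ± 0.34 and 1.28 ± 0.66 (adjusted p = 0.0866, 0.155 and 0.15).

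In MM.1S, HOXA3 and HOXC4 were detected with the combination and not with GSK126 alone. HOXB6 stood higher with the combination than with UNC0638 alone. Against GSK126 alone 2 HOX probes were called higher (HOXA3 and HOXC4) and 2 lower (HOXA10 at the longer interval and HOXB2). Of all probes 15.1% and 22% were called. The HOX counts, of 12 tested, were near those shares, so that they say nothing particular of HOX genes. HOXC4 was at least 1.68-fold and HOXA3 at least 1.72-fold above GSK126 alone (adjusted p = 0.00698 and 0.0296), and HOXB2 fell 1.45-fold (adjusted p = 0.0234). HOXB5 and HOXB6 differed from GSK126 alone by -0.68 ± 0.23 and -0.38 ± 0.21 (adjusted p = 0.0608 and 0.209). Against UNC0638 alone 5 were called higher (HOXB2, HOXB4, HOXB5, HOXB6 and HOXC4) and 0 lower, where 6.03% and 7.43% of all were called. HOXB6 was 8.10-fold above UNC0638 alone (adjusted p = 0.00578) and HOXB5 at least 2.14-fold (adjusted p = 0.00687). Of these calls, HOXA3, HOXA10 and HOXB2 against GSK126, and HOXB2, HOXB4 and HOXC4 against UNC0638, were lost without 1 or more single arrays (adjusted p up to 0.176). HOXA3, HOXB5 and HOXC4 were tested only because a treated group detected their probes. Their differences, and the counts that hold them, are therefore a description. All comparisons with the combination share its arrays.

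**Figure D4:**
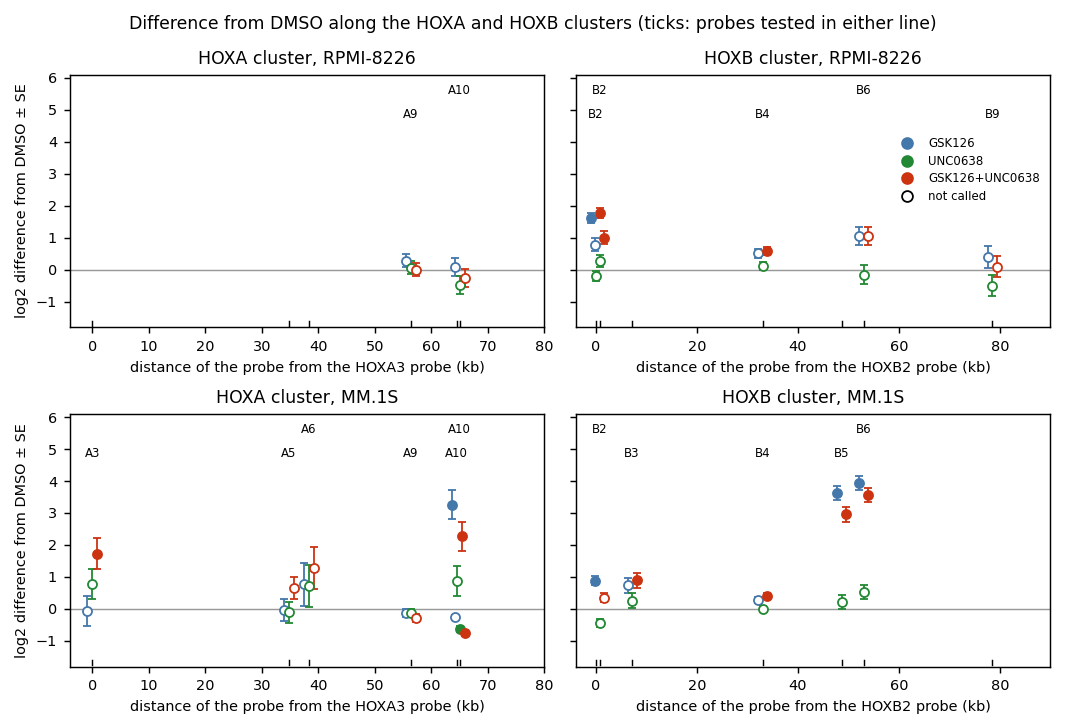
Log2 difference from DMSO ± SE (y axis) for each tested HOXA and HOXB probe, against its distance from the HOXA3 probe or from the first HOXB2 probe in kb (x axis), in RPMI-8226 (top) and MM.1S (bottom). Filled points were called, open points were not, and ticks mark the probes tested in either line; differences from arrays below background are fitted values and no bounds. The highest points in MM.1S are the neighbours HOXB5 and HOXB6, with HOXB4 beside them at 0.27 with GSK126.

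The centring of the arrays bears on all of these directions. With the 75th percentile taken over probes detected on all 16 arrays, the median of all probes moved up by 0.14 with the combination in RPMI-8226 and by 0.21 in MM.1S, and the share of higher calls among all calls went from 58.2% to 76.7% and from 41.2% to 60.5%. In MM.1S it went from 68.5% to 84.2% with GSK126 and from 43.7% to 62.9% with UNC0638. The HOX counts under that centring were 4 higher and 0 lower with the combination in RPMI-8226, and 8 higher and 1 lower in MM.1S. The 1.69-fold fall of HOXA10 was still called.

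The response of HOXB6, detected on every array, differed between the lines, with the larger rise in MM.1S. The lines started apart, at 0.87 and 0.07 with DMSO in RPMI-8226 and -3.69 and -3.95 in MM.1S. With GSK126 the MM.1S arrays read 0.39 and -0.16. The part of this starting gap in the HOXB6 interaction was not tested. Interactions (response in RPMI-8226 minus response in MM.1S, limma over 16 arrays, 14 HOX probes) gave 0 positive and 2 negative calls for GSK126, against 0.356% and 0.427% of all probes, and 0 and 3 for the combination, against 7.28% and 6%. For UNC0638 they gave 0 and 0 (1 of 14 at an unadjusted p below 0.05), against 1.11% and 1.79%. HOXB6 differed by -2.87 ± 0.39 for GSK126 (adjusted p = 0.00975) and -2.51 ± 0.39 for the combination (adjusted p = 0.00275), and both calls were kept in every alternative. The HOXA10 probe at chr7:27211235-27211294 differed by -3.13 ± 0.52 and -2.28 ± 0.52 (adjusted p = 0.0275 and 0.0194), and HOXB5 by -2.16 ± 0.55 for the combination (adjusted p = 0.0299) and -2.26 ± 0.55 for GSK126 (adjusted p = 0.123). These HOXA10 and HOXB5 calls were lost without some single arrays and with normexp correction (adjusted p up to 0.265). Neither probe was detected on any RPMI-8226 array, and both were tested only because treated MM.1S groups detected them. Their differences are therefore fitted values that include signal below background. These differences, and the interaction counts that hold them, are given as a description. For HOXB2 at chr17:46620127-46620186 the interaction with the combination was -0.54 ± 0.46 (adjusted p = 0.482), which turned to 0.70 with normexp correction (adjusted p = 0.0208), and for HOXB4 0.18 ± 0.16 (adjusted p = 0.486), so that the lines were not shown to differ at HOXB4 and the HOXB2 interaction depended on the background correction.

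Where a gene had 2 probes they often disagreed. There were 6 such genes, of which HOXD3 and HOXD9 were detected by neither probe. One HOXA9 probe was detected on 16 arrays and the other on 0, the HOXA10 probes on 16 and 4, the HOXA6 probes on 7 and 1, and the HOXB2 probes on 16 and 10. For HOXB2 both probes rose with the combination in RPMI-8226. In DMSO they gave opposite differences between the lines, with one at least 3.69-fold higher in RPMI-8226 (adjusted p = 2.07e-06) and the other 1.66-fold lower (adjusted p = 0.00432). The lower one lost its call with normexp correction.

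**Figure D5:**
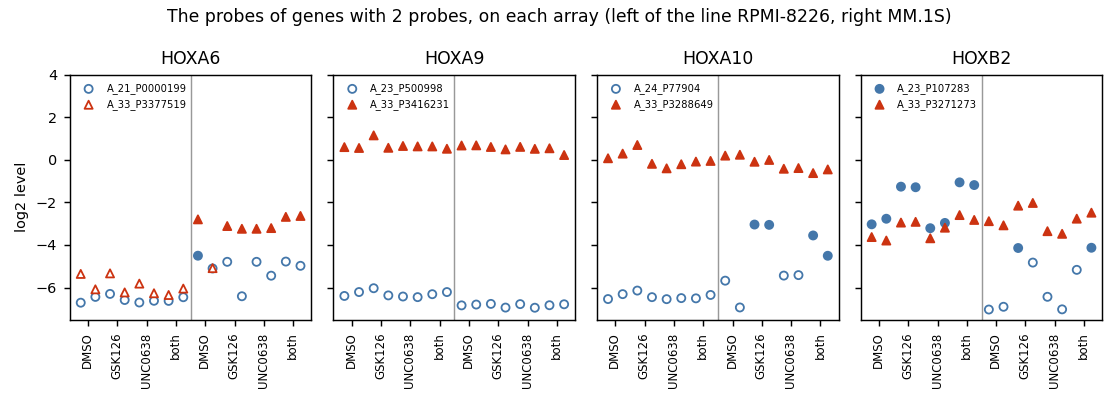
Level (y axis, log2 intensity minus the 75th percentile of the array) of both probes of HOXA6, HOXA9, HOXA10 and HOXB2 on each array (x axis, 2 arrays per treatment, RPMI-8226 left of the line and MM.1S right). Filled points were well above background; of the HOXA10 probes, one is detected on 16 arrays and the other on 4, all of them MM.1S arrays with GSK126.

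The regulators and partners of HOX genes were read from 1 probe a gene in each line, the brightest tested, which for DOT1L was a different probe in each line. The shares of all probes called higher and lower in MM.1S, given above, were 5.19% and 2.39% with GSK126, 12.8% and 16.5% with UNC0638, and 22.2% and 31.7% with the combination, and the list counts should be read against them. Of 11 PRC2 subunits and cofactors, all tested in both lines, 0 were called in RPMI-8226 against DMSO, and in MM.1S 0 with GSK126, 2 lower with UNC0638 and 7 lower with the combination, the 2 being near the share of all probes. EZH2 itself read 3.75 and 3.74 with DMSO in MM.1S, 3.81 and 3.62 with GSK126, 3.25 and 3.26 with UNC0638, and 2.92 and 2.37 with the combination. It was 2.14-fold below DMSO with the combination (adjusted p = 0.00348) and 1.41-fold below with UNC0638 alone. The 7 were EZH2, EED, SUZ12, RBBP4, RBBP7, MTF2 and PHF19. Of 4 genes of the G9a and GLP complex, EHMT2, which encodes G9a, was called lower with the combination in MM.1S (-0.32 ± 0.10, adjusted p = 0.0347) and none in RPMI-8226. Of 9 trithorax and H3K27 demethylase regulators, all tested in MM.1S and 8 in RPMI-8226, 0 were called higher against DMSO in either line, and 2 and 3 were lower in MM.1S with UNC0638 and the combination, near the shares of all probes. CDX1, the one of 3 CDX factors tested, fell by 0.28 on the log2 scale with the combination in MM.1S (adjusted p = 0.0494).

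The TALE homeodomain proteins, which bind DNA together with HOX proteins, were called in MM.1S, and the difference from RPMI-8226 was not tested. Of 9 on the array 7 were tested in each line. Against DMSO, 0 were called in RPMI-8226, and in MM.1S 1 was higher with GSK126, 3 were higher and 1 lower with UNC0638, and 4 were higher and 2 lower with the combination, the lower calls being near the shares of all probes. PBX3 read 0.44 and 0.29 with DMSO in MM.1S, 1.13 and 1.10 with GSK126, 1.37 and 1.40 with UNC0638, and 1.84 and 1.95 with the combination. These 4 groups did not overlap. MEIS1 rose 1.83-fold with the combination (adjusted p = 0.00247), while MEIS2 fell 1.76-fold (adjusted p = 0.0012).

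Noncoding RNAs of the clusters and genes flanking them were read in the same way. Of 5 HOX cluster noncoding RNAs on the array from the list, HOTAIRM1, of the HOXA cluster, was detected on all 8 MM.1S arrays and on no RPMI-8226 array. HOTAIRM1 read 0.34 and 0.11 with DMSO in MM.1S, 1.10 and 0.98 with GSK126, 0.96 and 1.10 with UNC0638, and 1.56 and 1.74 with the combination, a 2.69-fold rise (adjusted p = 0.000435). HOTAIR, of the HOXC cluster, fell 1.49-fold with the combination in MM.1S (adjusted p = 0.00381). Of 5 genes flanking each cluster, 5 were tested in MM.1S beside HOXA and HOXC, and 4 beside HOXB and HOXD. With the combination, 2 were called higher and 1 lower beside HOXA, and 1 and 2 beside HOXB. Beside HOXC they were 1 and 2, and beside HOXD 1 and 1. Counts this small cannot be told from the shares of all probes (22.2% higher and 31.7% lower). SKAP1, beside HOXB, read 2.06 and 2.06 with DMSO, 2.91 and 2.82 with GSK126, 3.50 and 3.65 with UNC0638, and 4.09 and 4.17 with the combination, a 4.19-fold rise (adjusted p = 9.92e-05). SNX10, beside HOXA, rose 5.65-fold with the combination (adjusted p = 0.000195), 3.03-fold with GSK126 (adjusted p = 0.0063) and 3.26-fold with UNC0638 (adjusted p = 0.00187). Other flanking genes went down in MM.1S. EVX1, beside HOXA, read 1.09 and 1.29 with DMSO and -0.01 and -0.18 with the combination. ATP5G1, beside HOXB, read 5.23 and 5.14 with DMSO and 4.09 and 3.99 with the combination.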

How the data were processed

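Total RNA of 16 cultures was hybridised to 1-colour Agilent human expression arrays. The authors deposited intensity values written by Agilent Feature Extraction 10.7 for each spot, with flags and GRCh37 probe positions. The processed signal, already background-corrected by that software, was used here. Its log2 was centred by subtracting, per array, the 75th percentile, and spots of one probe were averaged without control and outlier spots. A probe was tested where both arrays of some group detected it. The study's methods name Gene Spring GX for the arrays and no test.

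Treatments were compared within each line by limma 3.58.1 (lmFit, eBayes, R 4.3.3) over 8 arrays, with no replicate block in the main fits. The lines and the interactions were compared over 16. P-values were Benjamini-Hochberg adjusted over all probes tested, with a threshold of 0.05, and scripts were tested on simulated data. The text names every HOX gene called against DMSO in either line or detected on both arrays of any group, with all its probes, and gives the others by count, cluster and paralog number. The HOX genes and the gene lists were chosen with earlier results of these data known. Replicate numbers were checked for pairing by the correlation of deviations from group means, which was 0.254 to 0.415 in RPMI-8226, where the numbers were taken to pair the arrays, and 0.0847 to 0.225 in MM.1S, where they were not. Alternatives were quantile normalization, normexp correction, other filters on dim probes, another percentile, the replicate block, 1 fit over 16 arrays and leaving out each array. A few single-gene results are not reported here. The number of arrays, 2 per group, limits the precision.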

Additional observations from a re-analysis of the deposited data

Results flagged for a closer look

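The response of HOXB6 to treatment differed between the lines by the interaction test (response in RPMI-8226 minus response in MM.1S, limma over 16 arrays). The difference was -2.87 with GSK126 (adjusted p = 0.00975) and -2.51 with the combination (adjusted p = 0.00275), and both calls held in all 23 alternatives. For the HOXA10 probe detected on 4 arrays it was -3.13 with GSK126 (adjusted p = 0.0275) and -2.28 with the combination (adjusted p = 0.0194). For HOXB5 it was -2.16 with the combination (adjusted p = 0.0299). The last 2 probes were below background on all 8 RPMI-8226 arrays and were tested only through treated MM.1S groups, so that these are fitted values and a description. The HOXA10 calls were lost in 7 and 4 of 22 alternatives and the HOXB5 call in 7 of 22, normexp correction and single left-out arrays among them (adjusted p up to 0.265). Each line lay on its own slide, so that slide and line cannot be told apart. HOXB6 also started higher in RPMI-8226 (0.87 and 0.07 with DMSO) than in MM.1S (-3.69 and -3.95). The part of this gap in its interaction was not tested.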

How the results depend on the processing

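The number of HOX probes called moved with the filter on dim probes and with single arrays. In RPMI-8226, GSK126 gave 1 call, 0 without a filter, 3 in 1 fit over 16 arrays and 0 to 1 leaving out an array. The combination gave 3, or 1 to 2 leaving out an array, against GSK126 0 (0 to 1), and against UNC0638 1 (1 to 2), with 2 under normexp and 4 in 1 fit. In MM.1S, GSK126 gave 4, 2 with probes detected on all arrays and 2 to 5 leaving out an array. UNC0638 gave 1, 2 under quantile normalization, with probes detected on all arrays or with the other percentile, 0 in 1 fit and 1 to 3 leaving out an array. The combination gave 8, 5 with probes detected on all arrays and 6 to 10 leaving out an array. Against GSK126 it gave 4, 2 with that filter and 1 to 5, and against UNC0638 5, 2 without a filter, 3 with that filter, 3 in 1 fit and 2 to 5. Between DMSO groups 7 were called, 18 without a filter, 3 with probes detected on all arrays and 6 to 8 leaving out an array. For the GSK126 interaction 2 were called, 1 under normexp, without a filter or with that filter, and 1 to 3 leaving out an array. For the combination interaction 3 were called, 1 with that filter and 1 to 4. UNC0638 in RPMI-8226 and its interaction gave 0 under every alternative. The HOXB3 difference between DMSO groups reversed to 0.023 under normexp. With the positive-and-significant flag, detected HOX genes numbered 9, 10, 10 and 8 in the RPMI-8226 groups (DMSO, GSK126, UNC0638, both) and 12, 15, 14 and 17 in the MM.1S groups. The cause of these changes was not tested, beyond the number of probes or arrays that a filter or a left-out array removes.

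With the replicate number as a block, 4 HOX probes were called with the combination in RPMI-8226 and 2 against UNC0638, with 5 for the combination interaction (HOXA3 at -1.94 and HOXB9 at -2.50 added). In MM.1S, where the numbers did not pair the arrays, the block gave 5 calls with GSK126 and 5 and 6 for the combination against GSK126 and UNC0638.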

Other observations

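A few HOX genes were detected on single arrays. HOXB13 was well above background on 1 array, the second MM.1S culture with GSK126 (-4.79). HOXC4 was well above background on 1 RPMI-8226 array, the first with the combination (-3.41), and not on the other (-4.59). HOXB9 in MM.1S was detected on the first GSK126 array (-3.60) and the first combination array (-2.86) and not on their partners (-4.73 and -5.26).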
